A study of Mus musculus with 24 samples.

Results

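The response of wild type dendritic cells to zymosan was read from 8 of the 24 RNA sequencing samples of the study, 4 left untreated and 4 treated with zymosan, as the difference between these groups for every gene. The counts covered 38887 mouse genes, of which 14188 had enough counts to be tested. The cells were bone marrow-derived dendritic cells of mice labelled wild type (WT) for IRE1, the endoplasmic reticulum stress sensor encoded by Ern1. The titles attach the treatment to the mice, while the extraction protocol names stimulated cells in culture, so what was treated is taken here from the protocol. No dose, exposure time, age, sex, strain or conditional allele is given in the labels. They do not say whether replicates came from separate mice or cultures, so p-values measure the spread between these samples, which may be technical. Comparisons are made with 4 untreated and 4 zymosan samples labelled IRE1 knockout (KO), and with 4 WT samples treated with lipopolysaccharide (LPS), a bacterial cell wall component.

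Zymosan is a particle made from the yeast cell wall, rich in β-glucan and mannan. β-Glucan is bound by dectin-1 (gene Clec7a), a C-type lectin receptor that signals through the kinase Syk and the adaptor Card9, while Toll-like receptor 2 (Tlr2), paired with Tlr1 or Tlr6, signals through Myd88. Both routes lead to NF-κB and MAP kinase activity, and dendritic cells that receive such signals secrete cytokines, raise costimulatory molecules and present antigen to T cells. LPS is sensed by Tlr4, which signals through Myd88 and through Ticam1, the adaptor that leads to type I interferon.

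The total count was 35810219 to 45720878 per sample. A level is a CPM value, a count set against the library total after scaling by TMM factors (edgeR's trimmed mean method), which were 1.16 to 1.19 in untreated and 0.906 to 0.928 in zymosan samples. On the first principal component of the 8 samples (79.8% of variance) the treatments lay apart, and on the second (6.31%) replicates 1 and 2 lay apart from 3 and 4 in both groups. A chi-square per gene between libraries of a group was 3.7 to 5.68 within these pairs and 13.7 to 21.9 otherwise. The dendritic cell marker Itgax (CD11c) had 1152, 1129, 1244 and 1214 CPM untreated and 1156, 1149.7, 1218 and 1275 CPM with zymosan, a log2 fold change of 0.02 ± 0.05 that did not pass. It was called lower with upper-quartile factors (-0.12, edgeR adjusted p = 0.0334) and library totals (-0.33, edgeR adjusted p = 3.06e-06), scalings that are described below. Flt3, a receptor of conventional dendritic cells and their precursors, stood at 2.21, 1.94, 2.18 and 1.9 CPM untreated, and the dendritic cell genes Cd209a and Siglech had too few counts to be tested. Conventional dendritic cell markers summed to 2432 to 2537 CPM untreated and 3057 to 3227 CPM with zymosan, but their members did not move together. Of 11 tested, 4 were higher (2 by more than 2-fold) and 4 lower (3 by more than 2-fold), with a median log2 fold change of 0.02. Among the lower ones was Clec9a, which fell by 1.01. Plasmacytoid dendritic cell markers went from 146 to 173 CPM to 685 to 739 CPM, of which Bst2, also an interferon-stimulated gene, made up 116, 114, 135 and 142 CPM untreated and 636, 660.2, 604 and 621 CPM with zymosan. Summed markers of macrophages (1780.4 to 2009 CPM untreated, 1769 to 2003 with zymosan), neutrophils (1106 to 1740.3 and 1296 to 2028) and eosinophils, basophils and mast cells (715 to 1033 and 814 to 1177) overlapped between the groups, while single members were called: 3 of 8 macrophage genes were higher and 5 lower, 5 of 10 neutrophil genes higher and 1 lower, and 2 of 8 eosinophil, basophil and mast cell genes higher and 1 lower. The calls of higher genes in the last 2 lists were lost with replicate pairs summed and with upper-quartile factors. Without untreated replicate 3 or 4 or zymosan replicate 1 or 2, 1 neutrophil gene and none of the last list was called higher by edgeR. Those of T cells (at most 0.513 CPM), B cells (at most 2.19), natural killer cells (at most 0.786, Gzma at 0), erythroid (at most 0.181) and stromal cells (at most 4.42) were low. The part of other cell types in the results was not tested, and in bulk samples fewer cells of a type and less RNA per cell cannot be told apart.

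Zymosan changed the level of most genes tested. By edgeR's quasi-likelihood test, 4867 genes (34.3% of those tested) were higher and 5091 (35.9%) lower at a Benjamini-Hochberg adjusted p under 0.05, which is meant by "called" below. Large changes were mostly rises: 194 genes (1.37%) were higher and 11 (0.0775%) lower by more than 10-fold, against 1384 (9.75%) and 1243 (8.76%) by more than 2-fold. The samples of both groups did not overlap for 9076 genes (64%). Replicates 1 and 2 alone gave 4744 higher and 4848 lower, and replicates 3 and 4 alone 4649 and 4905. The balance of directions depended on the scaling: 48.9% of called genes were higher with TMM, 37.3% with upper-quartile factors (3795 higher, 6386 lower) and 22.8% with library totals alone (2520 and 8524), which moved the median log2 fold change of all genes from -0.01 to -0.15 and -0.36. All values below are relative to the TMM scale. Log2 fold changes are zymosan over untreated, with approximate standard errors derived from the model's test after the ± sign and n = 4 samples per group.

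**Figure D1:**
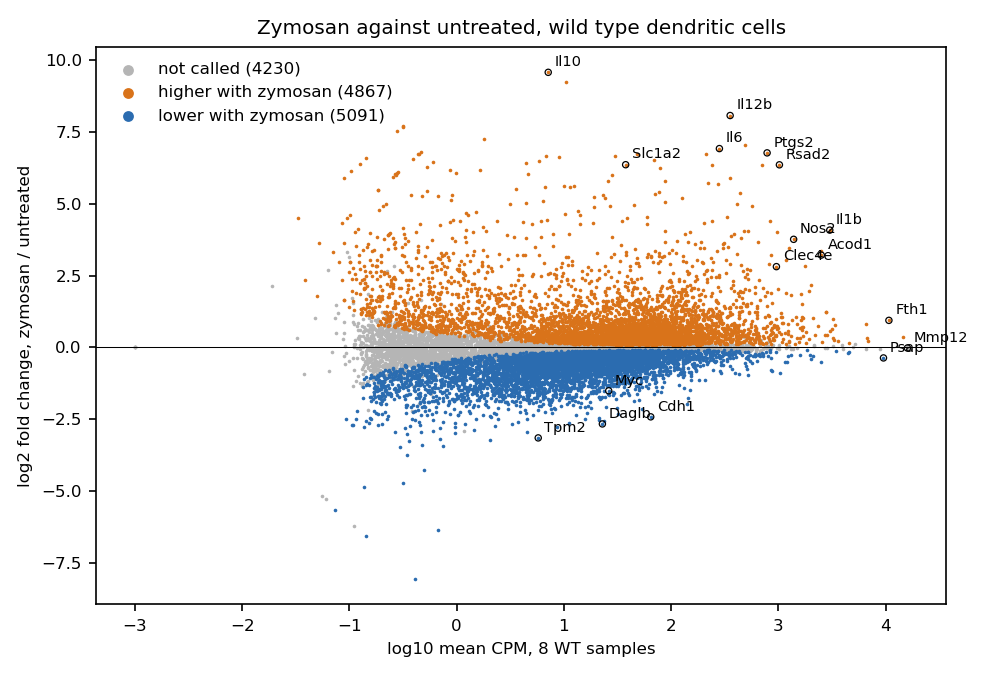
Log2 fold change of zymosan over untreated for the 14188 genes tested in WT cells (y axis) against the log10 of their mean CPM over the 8 samples (x axis), with called genes in orange (4867 higher) and blue (5091 lower). Changes of more than 10-fold are mostly rises (194 against 11), and Il1b and Acod1 stand out among the genes of high mean CPM.

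The 12 largest rises among genes of at least 5 CPM whose samples did not overlap were those of Il10, U90926, Il12b, Cxcl10, Il6, Ptgs2, Ms4a4c, Oasl1, Cxcl11, Iigp1, Cxcl9 and Ifit1bl1. Apart from U90926, they are cytokine and chemokine genes, the inducible cyclooxygenase gene Ptgs2 and genes known to be induced by interferon. Il10, which encodes a cytokine that restrains inflammation, had 3 counts over the 4 untreated libraries and 2162 over the 4 zymosan libraries, a ratio of 914 with a 95% exact interval of 312 to 4434 that covers counting error only. U90926 (ENSMUSG00000029409, chromosome 5, 92209893 to 92215408, minus strand), annotated as protein-coding, had 6 and 3136 counts, a ratio of 663 (304 to 1807). Its zymosan samples held 23.6, 26.1, 16.8 and 16.6 CPM, with replicates 1 and 2 above replicates 3 and 4. The 12 largest falls under the same conditions were smaller and came from other kinds of genes. The conditions on level and overlap leave out some larger falls, among them those of Cd163, Steap3 and Tlr5 given below. Tpm2 (ENSMUSG00000028464, chromosome 4, 43514711 to 43523765, minus strand), a tropomyosin that binds actin filaments, had 8.49, 9.29, 12.7 and 10.9 CPM untreated and 1.08, 1.05, 1.22 and 1.3 CPM with zymosan, and fell by 3.15 on the log2 scale. Deptor, an inhibitor of mTOR, fell by 2.77, and Daglb, a lipase that makes the endocannabinoid 2-arachidonoylglycerol, fell by 2.66. Dhcr7 (the last enzyme of cholesterol synthesis), Pald1, B3gnt7, Fam198b, Mamdc2, Cdh1 (E-cadherin), Matk (a kinase that inhibits Src family kinases), Nrep and Pdxk (which makes the active form of vitamin B6) completed the list, with falls of 2.61 to 2.32.

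**Figure D2:**
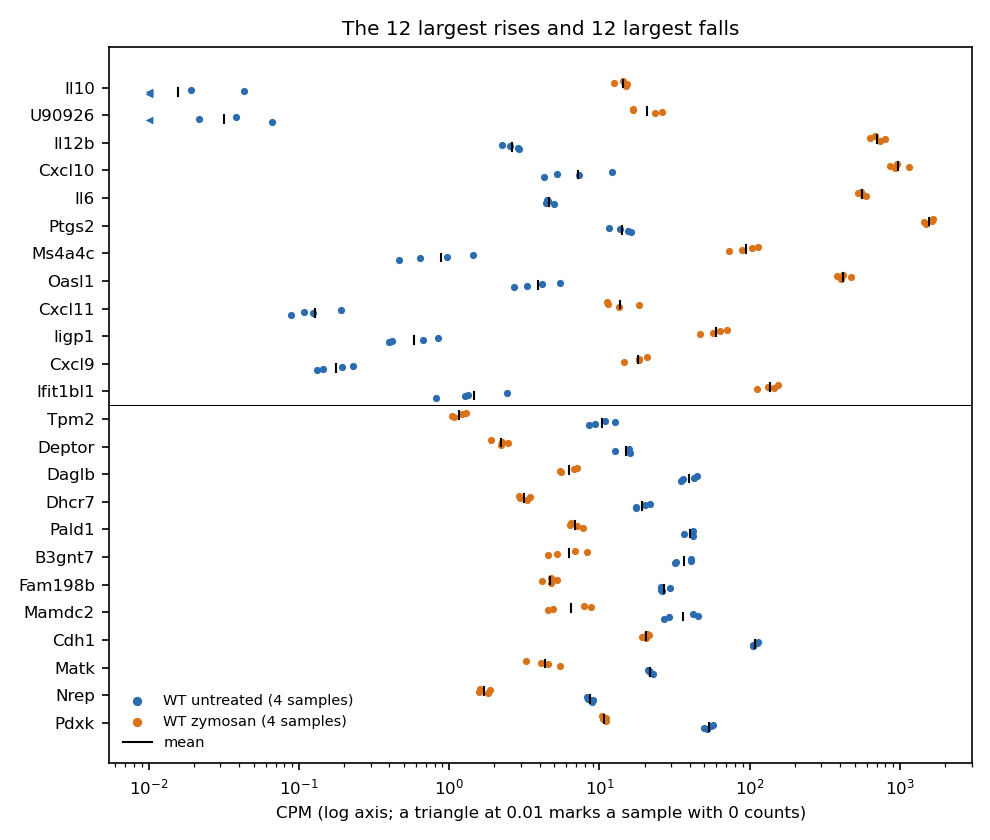
CPM on a log axis in each of the 4 untreated (blue) and 4 zymosan samples (orange), black bars marking group means. Shown are the 12 largest rises (top) and 12 largest falls (bottom) among genes of at least 5 CPM. The samples of the 2 groups do not overlap for any of the 24 genes, a condition of their choice, and replicates of a group lie close together next to the gap between groups.

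On the CPM scale, the 10 genes with the largest gain rose from 2.82% ± 0.0861 of the TMM-scaled total to 6.58% ± 0.125 (SD, n = 4). This is a share of the scaled total, not of the raw counts of a sample. It is a description, since the genes were chosen for it. The 10 genes were Il1b, Fth1, Il1a, Acod1, Gm13340, Prdx1, Cxcl3, Mmp13, Nos2 and Ccl22. Gm13340 is annotated as an unprocessed pseudogene, so its reads may be shared with near-identical sequence, and its rise of 0.38 was not called with library totals (0.03, edgeR adjusted p = 0.553). The 10 largest losses were Psap, Gpi1, Fn1, Scd2, Gpnmb, Actg1, Cotl1, Mmp8, Adam8 and Lpl. They went from 3.28% ± 0.0623 to 2.55% ± 0.122 of the scaled total. Lpl, lipoprotein lipase, had 4628, 4787, 4898 and 4756 CPM untreated and 4272, 4059, 4378 and 4431 with zymosan, and fell by 0.15; summing replicate pairs ended the call (edgeR adjusted p = 0.146). Fn1 (fibronectin) and Gpnmb were called lower although their samples overlapped, with the untreated levels of replicates 1 and 2 apart from those of 3 and 4. With replicate pairs summed both calls ended (edgeR adjusted p = 0.11 and 0.0675), as did that of Fn1 without untreated replicate 1 (0.0683).

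Promoters are shown for 5 genes that rose more than 10-fold, to set strongly induced genes beside letters that NF-κB, AP-1 and interferon-activated factors are known to bind. Each is the 250 bases before the annotated start, 5′ to 3′ on the gene's strand, from RefSeq on GRCm38.p6, with capitals marking matches on either strand to GGGA, any base and TTTCC (NF-κB), to TGANTCA (AP-1) or to GAAA, any 2 bases and GAAA, the core of the interferon-stimulated response element (ISRE). They were chosen among the promoters searched for holding such matches. Those of Il12b, Ptgs2, Oasl1, Ifit2, Il1b, Slc1a2 and Ifnb1, which also rose more than 10-fold, held none in this window.
Il6: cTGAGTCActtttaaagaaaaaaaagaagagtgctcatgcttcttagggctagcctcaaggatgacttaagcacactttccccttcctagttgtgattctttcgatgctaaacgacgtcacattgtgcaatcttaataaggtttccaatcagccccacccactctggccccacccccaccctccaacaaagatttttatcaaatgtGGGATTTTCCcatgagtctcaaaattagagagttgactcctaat
Cxcl1: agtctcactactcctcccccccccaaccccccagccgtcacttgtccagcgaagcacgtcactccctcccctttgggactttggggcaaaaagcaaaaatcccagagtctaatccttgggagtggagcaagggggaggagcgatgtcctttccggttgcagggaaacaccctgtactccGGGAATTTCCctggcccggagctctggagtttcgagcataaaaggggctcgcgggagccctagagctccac
Cxcl10: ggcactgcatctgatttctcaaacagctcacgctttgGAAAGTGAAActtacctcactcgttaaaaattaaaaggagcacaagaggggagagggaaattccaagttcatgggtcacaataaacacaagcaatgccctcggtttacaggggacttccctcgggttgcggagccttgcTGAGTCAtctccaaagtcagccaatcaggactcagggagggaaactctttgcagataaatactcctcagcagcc
Ifit1: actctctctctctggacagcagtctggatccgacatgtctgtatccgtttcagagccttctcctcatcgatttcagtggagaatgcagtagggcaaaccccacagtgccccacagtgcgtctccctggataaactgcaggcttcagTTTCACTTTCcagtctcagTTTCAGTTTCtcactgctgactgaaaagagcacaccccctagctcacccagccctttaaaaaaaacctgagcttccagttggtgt
Isg15: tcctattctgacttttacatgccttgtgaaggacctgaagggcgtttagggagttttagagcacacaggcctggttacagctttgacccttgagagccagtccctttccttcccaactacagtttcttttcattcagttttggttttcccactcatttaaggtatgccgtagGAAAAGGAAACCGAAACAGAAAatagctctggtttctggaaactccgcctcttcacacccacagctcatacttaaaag
The Il6 stretch (chr5:30012864-30013113, plus strand) holds the NF-κB letters from -44 to -35 and the AP-1 letters from -249 to -243, counted from the start. The Cxcl1 stretch (chr5:90890995-90891244, plus strand) holds the NF-κB letters from -71 to -62. Cxcl10 (chr5:92348890-92349139, minus strand) has an ISRE core from -213 to -204 and an AP-1 match from -74 to -68. Ifit1 (chr19:34640639-34640888, plus strand) has ISRE cores on its other strand from -104 to -95 and -85 to -76. Isg15 (chr4:156200819-156201068, minus strand) has 3 ISRE cores that overlap each other between -78 and -57.

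A promoter entry was matched for 10444 of the tested genes (73.6%). The ISRE core occurred in 33 of 136 promoters (24.3%) of genes higher by more than 10-fold, in 63 of 800 (7.88%) of those higher by 2-fold to 10-fold and in 27 of 936 (2.88%) of those lower by more than 2-fold. Its share was 2.26% among 2833 genes that were not called, 3.48% over all tested genes and 2.98% over all 32851 entries. A gene was counted if any of its entries matched, while the share over entries counts each entry alone. AP-1 letters were found in 17.6%, 9.0% and 6.3% of the same 3 sets. The shares were 5.68% of genes not called, 5.74% of all tested genes and 6.75% of all entries. NF-κB letters of this strict form were rare everywhere, in 3 of 136 (2.21%), 0.875% and 0.321% of the sets. They were in 0.529% of genes not called, 0.46% of all tested genes and 0.356% of all entries. The shares describe letters in a fixed window, and a match does not show that a factor binds there.

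The receptors and adaptors known to sense zymosan had 18 of 25 genes higher and 6 lower, a median log2 fold change of 0.69 against -0.01 over all genes tested. With library totals 13 were higher and 10 lower (median 0.34). Clec7a (ENSMUSG00000079293, chromosome 6, 129461591 to 129472779, minus strand), which encodes dectin-1, had 684, 625, 772 and 778 CPM untreated and 986, 938, 1069 and 1099.5 CPM with zymosan. Its samples did not overlap (log2 fold change 0.52 ± 0.12, edgeR adjusted p = 0.000346), though with library totals the call was lost (0.17, edgeR adjusted p = 0.164). Tlr2 (ENSMUSG00000027995, chromosome 3, 83836272 to 83841767, minus strand) went from 214, 207, 235 and 225 to 592, 581, 573 and 621 CPM. All 4 zymosan samples were above all untreated ones (log2 fold change 1.43 ± 0.07, edgeR adjusted p = 7.42e-15), and its partners Tlr1 and Tlr6 rose by 2.12 and 0.99. Clec4e, encoding Mincle, a lectin receptor for fungal and mycobacterial glycolipids, rose most of the list, from 228, 234, 251 and 241 to 1537, 1501, 1824 and 1857 CPM (log2 fold change 2.81 ± 0.08, edgeR adjusted p = 1.03e-19). The related receptor Clec4d rose by 1.02 and Cd14, a co-receptor that hands ligands to Toll-like receptors, by 2.07.

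Downstream of these receptors the members did not move one way. Syk (log2 fold change 0.73 ± 0.04, edgeR adjusted p = 2.2e-13) and Myd88 (log2 fold change 0.78 ± 0.07, edgeR adjusted p = 3.01e-10) rose, as did the paracaspase Malt1 at 1.02 and the kinase Map3k8 at 1.62. Card9 (ENSMUSG00000026928, chromosome 2, 26352176 to 26360918, minus strand), which couples Syk to Malt1 and Bcl10, went the other way. Its level was 54.9, 55.1, 54 and 52.8 CPM untreated and 36.5, 33.4, 32.5 and 28.7 CPM with zymosan. The groups did not overlap, and Card9 fell by 0.73 (edgeR adjusted p = 1.29e-10), next to a fall of 0.41 for Irak1, a kinase of the Myd88 route. Among 16 other Toll-like receptors and their co-receptors, 11 were higher and 5 lower (median 0.38), and 4 higher and 6 lower with library totals. Tlr3, a sensor of double-stranded RNA, rose by 3.27 and Tlr7, of single-stranded RNA, by 1.32. Tlr5, the flagellin receptor, fell by 2.66, Tlr12 by 1.21 and Tlr11 by 1.13, a fall not called in replicates 1 and 2 alone (-0.50, edgeR adjusted p = 0.136).

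All 16 NF-κB subunits, inhibitors and kinases listed were higher (median 1.17). Nfkbiz, an inducible nuclear cofactor of NF-κB, rose by 3.30, Nfkb2 by 1.91, Nfkbib by 1.73, Rel by 1.44 and the inhibitor Nfkbia by 1.25. Of 22 immediate early and AP-1 genes, 15 were higher and 5 lower (median 0.76). Nr4a1, an orphan nuclear receptor, rose by 2.40, Atf3 by 1.25 and Batf by 1.21. Fos fell by 0.47. Myc (ENSMUSG00000022346, chromosome 15, 61985391 to 61990374, plus strand), a driver of growth and ribosome production, had the largest fall of the list. It stood at 38, 37.5, 38.9 and 40.5 CPM untreated and 15.1, 13.3, 13 and 13.1 CPM with zymosan. The groups did not overlap (log2 fold change -1.51 ± 0.04, edgeR adjusted p = 1.23e-19).

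Feedback inhibitors of these pathways were raised in 19 of 25 cases and lower in 4 (median 1.13), and in 15 and 7 with library totals. Usp18, which removes Isg15 from proteins and blocks interferon receptor signalling, rose by 4.39. The MAP kinase phosphatase genes Dusp14, Dusp2 and Dusp16 rose by 2.77, 2.35 and 1.98. Zc3h12a, an RNase that degrades cytokine mRNA, rose by 2.30, Tnfaip3, the ubiquitin-editing enzyme A20, by 1.79 and Irak3, which inhibits Irak kinases, by 1.52. Sigirr, an inhibitory receptor of the interleukin 1 receptor family, was the main exception and fell by 1.29.

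Among cytokines, all 5 interleukin 12 family genes were higher (median 5.63). Il23a (ENSMUSG00000025383, chromosome 10, 128296139 to 128298752, minus strand), the subunit that distinguishes interleukin 23 from interleukin 12, had 0.531, 0.62, 0.366 and 0.421 CPM untreated and 29.8, 24.7, 20.6 and 21.5 CPM with zymosan (log2 fold change 5.63 ± 0.16, edgeR adjusted p = 4.86e-20). Il12a, its counterpart in interleukin 12, rose by 5.63, Il27 by 5.19 and Ebi3, the partner of Il27, by 1.46. The interleukin 1 family showed 9 of 14 genes higher and 4 lower (median 1.25). Il1b (ENSMUSG00000027398, chromosome 2, 129364570 to 129371139, minus strand) had 348, 363, 321 and 309 CPM untreated and 5738, 5727, 5640.1 and 5688 CPM with zymosan (log2 fold change 4.09 ± 0.06, edgeR adjusted p = 9.14e-26). All zymosan samples were above all untreated ones, and Il1a rose by 3.35. Il1f6, encoding interleukin 36α, rose by 5.31 and Il18 by 3.26. The antagonist genes of the family, Il1rn and Il18bp, rose by 1.25 and 2.15. The receptor genes Il1r1 and Il18r1 fell by 0.70 and 1.87.

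The other interleukins and related cytokines had 19 genes higher and 4 lower of 23 tested out of 24 listed (median 0.82). Il19, of the interleukin 10 family, had 1 count untreated and 132 with zymosan over 4 libraries each, and Ifnb1, interferon β, had 2 and 157, a ratio of 99.5 with an exact interval of 27.1 to 829. Il15 and its receptor chain Il15ra, which present interleukin 15 to lymphocytes, rose by 2.41 and 2.67, Lif by 2.70 and Inhba, which forms activin A, by 2.16. Il6ra and Il6st, the receptor chains for interleukin 6, fell by 1.02 and 0.81 where Il6 itself rose by 6.92.

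Of 15 colony-stimulating and growth factor genes 7 were higher and 3 lower (median 0.19), and 5 and 8 with library totals (median -0.16). Csf3 (ENSMUSG00000038067, chromosome 11, 98701263 to 98703629, plus strand), granulocyte colony-stimulating factor, had 0.863, 1.2, 1.34 and 1.03 CPM untreated and 27.8, 26.6, 26.8 and 27.8 CPM with zymosan (log2 fold change 4.62 ± 0.13, edgeR adjusted p = 6.57e-20). Csf2, which encodes GM-CSF, had 16 and 146 counts over the 4 libraries of each group, a ratio of 11.6 (6.89 to 20.8), and Ereg, an epidermal growth factor receptor ligand, 5 and 294, a ratio of 74.6 (31.6 to 231). The TNF family had 17 genes higher and 5 lower of 25 tested out of 26 (median 0.50), and 13 and 10 with library totals (median 0.15). Tnf (ENSMUSG00000024401, chromosome 17, 35199381 to 35202007, minus strand) rose from 207, 202, 189 and 182 to 1442, 1375, 1431 and 1543 CPM (log2 fold change 2.89 ± 0.08, edgeR adjusted p = 1.88e-20). Cd70, a costimulatory ligand of CD27, rose by 4.99, Tnfsf10, the death ligand TRAIL, by 4.64 and Tnfsf15 by 3.46. Tnfsf13, encoding the B cell factor APRIL, fell by 1.33 and Tnfsf13b, encoding BAFF, by 0.50.

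Chemokine genes were higher in 20 cases and lower in 1 of 22 tested out of 26 (median 1.91). Those that attract neutrophils through Cxcr2 rose together. Cxcl1 (ENSMUSG00000029380, chromosome 5, 90891241 to 90893115, plus strand), whose promoter is printed above, had 2.83, 2.32, 1.62 and 1.53 CPM untreated and 183, 155, 139 and 144 CPM with zymosan (log2 fold change 6.23 ± 0.15, edgeR adjusted p = 2.43e-21). Cxcl5 rose by 5.99, Cxcl2 by 3.66 and Cxcl3 by 2.84. Cxcl9, Cxcl10 and Cxcl11, ligands of Cxcr3 on T cells, rose by 6.65, 7.06 and 6.68, and Ccl5 by 4.39. Ccl22 and Ccl17, ligands of Ccr4, rose by 1.98 and 0.72, and Cxcl14 fell by 1.04.

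The receptors for such signals split, with 8 higher and 7 lower of 18 tested out of 20 (median 0.17), and 6 and 9 with library totals (median -0.18). Ccr7 (ENSMUSG00000037944, chromosome 11, 99144196 to 99155077, minus strand), which guides dendritic cells to lymph nodes, had 142, 146, 116 and 121 CPM untreated and 332, 332, 244 and 262 CPM with zymosan (log2 fold change 1.16 ± 0.08, edgeR adjusted p = 3.76e-12). Ccrl2, a receptor that binds chemerin, rose by 3.03 and the formyl peptide receptors Fpr1 and Fpr2 by 2.30 and 2.00. The complement C5a receptors C5ar1 and C5ar2 fell by 0.69 and 1.60, the inflammatory monocyte receptor Ccr2 by 0.75, Cxcr4 by 0.69 and S1pr1, which draws cells out of tissue, by 1.60.

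Costimulatory and checkpoint molecules were higher in 16 and lower in 4 of 20 genes (median 1.20). Cd86 (ENSMUSG00000022901, chromosome 16, 36603869 to 36666081, minus strand), a ligand of CD28, went from 56.5, 58.3, 49.1 and 49.3 to 195, 215, 179 and 183 CPM (log2 fold change 1.86 ± 0.08, edgeR adjusted p = 4.83e-17). Cd80 rose by 1.20, Cd83 by 1.26, Cd40 by 5.19 and Slamf1, a self-binding receptor, by 2.94. Inhibitory ligands and receptors went both ways. Cd274, encoding PD-L1, rose by 1.67, Cd200 by 2.62 and Btla by 2.52. Vsir, encoding the checkpoint VISTA, fell by 1.15, Havcr2, encoding TIM-3, by 1.06 and Cd200r1, the receptor of Cd200, by 0.84.

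Antigen is shown to CD8 T cells on class I molecules, after cutting by the proteasome, and to CD4 T cells on class II molecules. Of 25 class I and proteasome genes 22 were higher and 3 not called (median 1.00), and 19 were higher and 4 lower with library totals. Nlrc5, the class I transactivator, rose by 2.98, the peptide transporter gene Tap1 by 2.09, the immunoproteasome subunit gene Psmb9 by 1.93 and B2m by 1.00. Of 15 class II genes 8 were higher and 4 lower (median 0.27), and 6 and 7 with library totals (median -0.08). H2-Ab1 (ENSMUSG00000073421, chromosome 17, 34257689 to 34269419, plus strand), a class II β chain, had 418, 446, 422 and 442 CPM untreated and 588, 618, 613 and 626 CPM with zymosan (log2 fold change 0.50 ± 0.04, edgeR adjusted p = 3.59e-11). H2-DMa, part of the chaperone that loads class II molecules, fell by 0.86. March1, a ubiquitin ligase that removes class II and Cd86 from the surface, rose by 1.15.

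Interferon-stimulated genes were higher in 31 of 31 cases, all by more than 2-fold (median 3.48). Isg15 (ENSMUSG00000035692, chromosome 4, 156199424 to 156200818, minus strand), a ubiquitin-like modifier, had 16.3, 16.1, 23.5 and 26 CPM untreated and 824, 918, 818 and 834 CPM with zymosan (log2 fold change 5.37 ± 0.17, edgeR adjusted p = 2.27e-19). Ifit1, which binds viral RNA, rose by 5.89, Ifi205 by 6.34, Mx2 by 4.40 and Ifih1, the RNA sensor MDA5, by 3.46. Samhd1, which degrades nucleotides, had the smallest rise of the list at 1.44. Ifnb1, whose product acts on these genes, had the 157 counts given above. All 12 guanylate-binding proteins and immunity-related GTPases tested of 15 listed were higher (median 3.71), Iigp1 by 6.66 and Irgm1 by 3.18. Near-identical members of these families, such as Gbp genes, Tgtp1 and Tgtp2 or Ifit3 and Ifit3b, may share reads, and Gbp5, Gbp6 and Gbp10 were not analysed here.

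The factors upstream of these genes were higher in 19 and lower in 1 of 23 cases (median 0.88), and in 17 and 5 with library totals. Irf7 (ENSMUSG00000025498, chromosome 7, 141262706 to 141266481, minus strand), which drives type I interferon genes, had 22.8, 22.6, 28.8 and 35.3 CPM untreated and 561, 684, 623 and 672 CPM with zymosan (log2 fold change 4.53 ± 0.17, edgeR adjusted p = 1.01e-17). Stat2 rose by 2.54, Irf1 by 1.95 and Irf8, a dendritic cell lineage factor, by 0.72. Ifngr1, a chain of the interferon γ receptor, fell by 0.59.

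**Figure D3:**
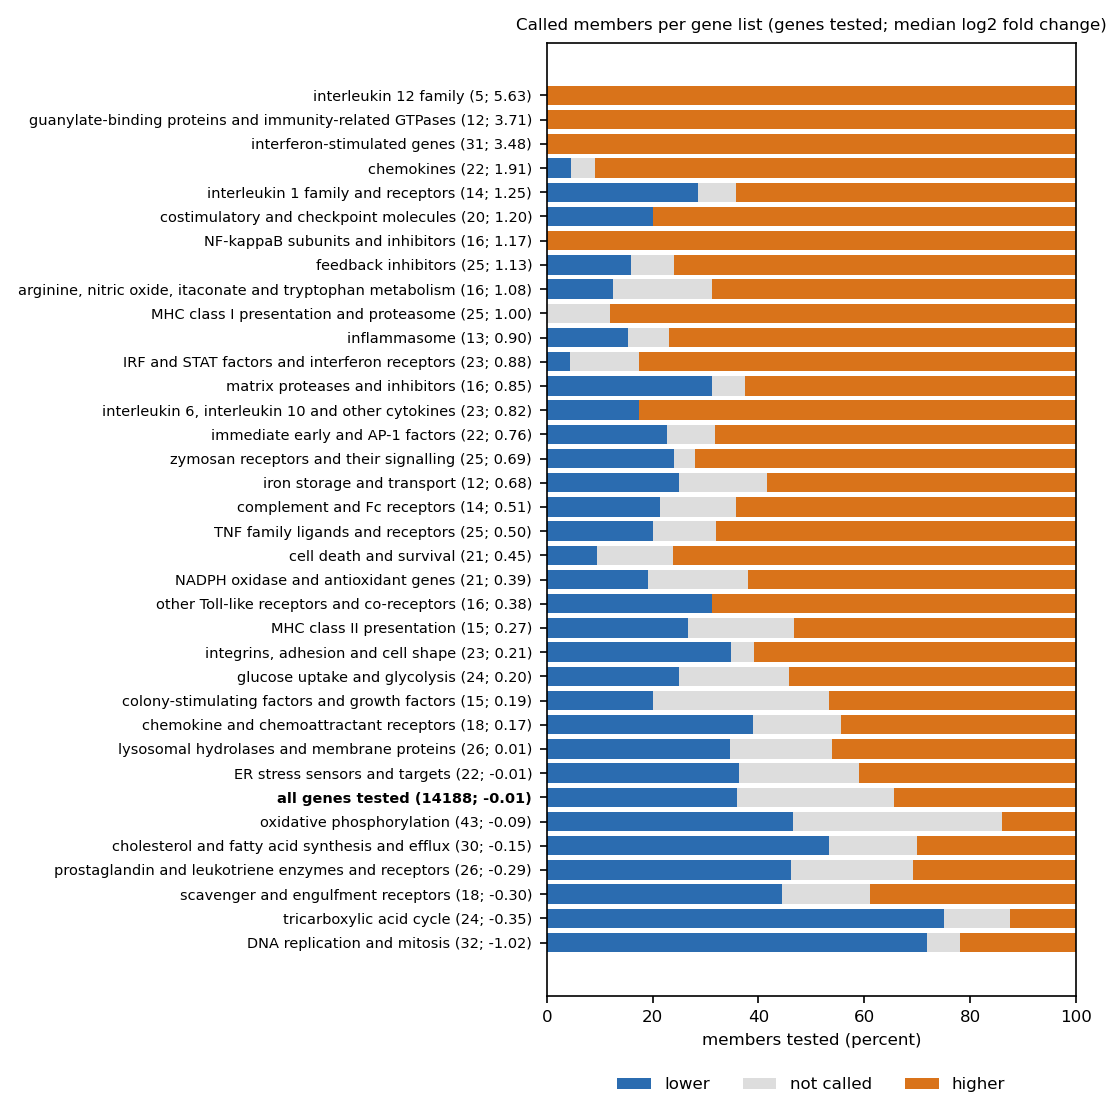
Share of tested members that were higher (orange), lower (blue) or not called (grey) with zymosan in each gene list, with the number tested and the median log2 fold change beside its name and all genes tested in bold. Interferon-stimulated genes, GTPases, NF-κB and interleukin 12 family genes are higher throughout, while replication and tricarboxylic acid cycle genes are mostly lower; the medians near 0 depend on the scaling.

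Prostaglandin and leukotriene genes went in both directions, with 8 higher and 12 lower of 26 tested out of 31 (median -0.29), and 6 and 17 with library totals. Besides Ptgs2, which rose by 6.78, the synthase Ptges rose by 3.29. Several leukotriene genes of the list were called lower. Alox5 (ENSMUSG00000025701, chromosome 6, 116410077 to 116461178, minus strand), the 5-lipoxygenase, had 104, 103, 88.3 and 90.3 CPM untreated and 48.9, 47.5, 38.8 and 42 CPM with zymosan. The groups did not overlap (log2 fold change -1.12 ± 0.09, edgeR adjusted p = 2.43e-11). Its partner protein gene Alox5ap fell by 0.43, Lta4h, which makes leukotriene B4, by 0.74 and the leukotriene B4 receptor gene Ltb4r1 by 0.98. Ptgis, the prostacyclin synthase, fell by 1.69 and Tbxas1, the thromboxane synthase, by 0.79.

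In central metabolism, 13 of 24 glycolysis genes tested (25 listed) were higher and 6 lower with TMM (median 0.20), and 6 and 12 with library totals (median -0.15). Hk2, a hexokinase of the first step of glycolysis, rose by 0.71 and the transporter gene Slc2a6 by 1.33. Pgk1 rose by 0.42, a call lost with library totals (0.07, edgeR adjusted p = 0.192). Gpi1 fell by 0.50 and Aldoc by 0.79. Tricarboxylic acid cycle genes were lower in 18 and higher in 3 of 24 cases (median -0.35). The isocitrate dehydrogenases fell most. Idh2 (ENSMUSG00000030541, chromosome 7, 80094846 to 80115392, minus strand) had 55.2, 57.6, 56.9 and 55.5 CPM untreated and 26.3, 23.1, 23.7 and 23.2 CPM with zymosan (log2 fold change -1.23 ± 0.06, edgeR adjusted p = 4.51e-15). Idh1 fell by 1.15, Idh3a by 1.17 and Suclg2 by 0.92. Oxidative phosphorylation genes moved little, with 6 higher and 20 lower of 43 (median -0.09), and 2 and 41 with library totals.

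The enzyme that draws on the same cycle for itaconate went the other way. Acod1 (ENSMUSG00000022126, chromosome 14, 103046977 to 103056573, plus strand), which makes itaconate from cis-aconitate, had 448, 434, 532 and 539.8 CPM untreated and 4291, 4294, 4687 and 4883 CPM with zymosan (log2 fold change 3.22 ± 0.09, edgeR adjusted p = 4.49e-20). In its list of arginine, nitric oxide, itaconate and tryptophan genes 11 of 16 were higher and 2 lower (median 1.08), and 10 and 5 with library totals. Nos2, the inducible nitric oxide synthase, rose from 221, 205, 178 and 158 to 2398, 2722, 2516 and 2716 CPM (log2 fold change 3.77 ± 0.09, edgeR adjusted p = 9.26e-22). Arg2, the mitochondrial arginase, rose by 2.35, Gch1, needed for the cofactor of nitric oxide synthases, by 1.80 and Slc7a2, an arginine transporter, by 1.22. Arg1, the cytosolic arginase, had 2935, 3113, 2792 and 2558 CPM untreated and 3081, 3041, 2553 and 2558 CPM with zymosan, and did not pass (log2 fold change -0.02 ± 0.08, edgeR adjusted p = 0.833), though with library totals it was called lower (-0.37, edgeR adjusted p = 0.000399). Kynu rose by 1.31 and Kmo, of the same tryptophan pathway, fell by 1.28.

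Cholesterol and fatty acid synthesis and efflux genes were lower in 16 and higher in 9 of 30 cases (median -0.15), and in 25 and 4 with library totals. Elovl6, which lengthens fatty acids, had 8.67, 7.88, 9.14 and 8.6 CPM untreated and 2.74, 2.4, 2.32 and 1.74 CPM with zymosan (log2 fold change -1.90 ± 0.12, edgeR adjusted p = 5.68e-13). The desaturase genes Scd1 and Scd2 fell by 1.07 and 0.88. Ch25h, which makes the oxysterol 25-hydroxycholesterol, rose from 5.53, 5.07, 7.85 and 9.08 to 49.7, 58.2, 81.7 and 87.5 CPM (log2 fold change 3.33 ± 0.20, edgeR adjusted p = 1.33e-13). Nr1h3, the oxysterol receptor LXRα, rose by 1.04 and the cholesterol exporter gene Abca1 by 0.79.

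Iron genes were higher in 7 and lower in 3 of 12 cases (median 0.68), and in 6 and 5 with library totals. Hamp, the hormone hepcidin that closes the iron exporter ferroportin, had 8 counts untreated and 488 with zymosan over 4 libraries each, a ratio of 77.3 (38.9 to 180.2). Fth1, the ferritin heavy chain, had 6764, 6981, 7706 and 7943 CPM untreated and 12393, 14307, 14447 and 15430 CPM with zymosan (log2 fold change 0.94 ± 0.07, edgeR adjusted p = 7.83e-12). Lcn2, which binds bacterial siderophores, rose by 2.45, Cp, a ferroxidase, by 2.83 and the importer gene Slc11a2 by 1.80. Steap3, an iron reductase of endosomes, fell by 2.96 and Tfrc, the transferrin receptor, by 0.46.

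Of 21 oxidase and antioxidant genes 13 were higher and 4 lower (median 0.39), and 6 and 8 with library totals. Sod2, the mitochondrial superoxide dismutase, rose by 2.09, Hmox1, which degrades heme, by 1.06 and Cybb, the catalytic subunit of the phagocyte oxidase, by 1.03, while Gpx1 fell by 0.54. Lysosomal genes had 12 higher and 9 lower of 26, with a median of 0.01 that changed sign with upper-quartile factors and library totals, the latter giving 8 and 16. Npc2, a cholesterol carrier, rose by 1.22 and Ctsk by 1.00, and Gusb fell by 0.97. Psap, which activates sphingolipid hydrolases, had 10160, 10289, 11040 and 11564 CPM untreated and 7379.8, 7949, 8828 and 9309.5 CPM with zymosan and fell by 0.36.

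Replication and mitosis genes were lower in 23 and higher in 7 of 32 cases (median -1.02). Rrm2 (ENSMUSG00000020649, chromosome 12, 24708241 to 24714146, plus strand), a subunit of the enzyme that makes deoxynucleotides, had 21.4, 20.2, 19.8 and 17.5 CPM untreated and 6.74, 5.48, 4.24 and 5.14 CPM with zymosan (log2 fold change -1.87 ± 0.11, edgeR adjusted p = 5.76e-14). The helicase gene Mcm2 fell by 1.60, Mcm7 by 1.48, Ccnb1 by 1.42 and Ccna2 by 1.40. Mki67, another proliferation marker, was instead called higher at 0.41, a call lost with library totals (0.06, edgeR adjusted p = 0.476). Ccnd2, a G1 cyclin, rose by 1.93 and Cdkn1a, the inhibitor p21, by 1.13.

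Cell death and survival genes were higher in 16 and lower in 2 of 21 tested out of 23 (median 0.45), and in 11 and 8 with library totals (median 0.10). Cflar, which blocks caspase 8, rose by 2.06, Birc3 by 1.20 and Mlkl, the executor of necroptosis, by 2.13. Bcl2 fell from 21.6, 18.8, 20.4 and 17.8 to 5.57, 5.63, 7.11 and 6.21 CPM (log2 fold change -1.68 ± 0.09, edgeR adjusted p = 7.21e-15), while the related Bcl2a1b, whose near-identical copies may share reads, rose by 1.12. Inflammasome genes were higher in 10 and lower in 2 of 13 cases (median 0.90). Casp4, the caspase that senses LPS in the cytosol, rose by 3.26, Casp1 by 2.33, Nlrp3 by 1.26 and the pore gene Gsdmd by 1.05, and Nlrp1b fell by 1.69.

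Endoplasmic reticulum stress genes did not lean one way, with 9 higher and 8 lower of 22 (median -0.01), 5 and 11 with upper-quartile factors and 4 and 17 with library totals. Ern1 (ENSMUSG00000020715, chromosome 11, 106394650 to 106487852, minus strand), which encodes IRE1α, had 42.3, 43.3, 40.5 and 40.2 CPM untreated and 30.7, 30.3, 30.3 and 29.5 CPM with zymosan. The groups did not overlap, and Ern1 fell by 0.46 (edgeR adjusted p = 9.25e-09). Its target Xbp1 had 248, 262, 236 and 228 and 230, 228, 203 and 209 CPM, which overlapped (log2 fold change -0.16 ± 0.05, edgeR adjusted p = 0.00322; 0.0924 once replicate pairs were added together). Whole-gene counts do not show splicing. The chaperone gene Hspa5 rose by 0.96 and Ddit3, encoding CHOP, by 0.73, and Eif2ak3, which encodes the sensor PERK, fell by 0.74.

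Complement and Fc receptor genes were higher in 9 and lower in 3 of 14 tested out of 15 (median 0.51), and in 7 and 6 with library totals (median 0.16). Cfb, complement factor B, had 161, 151, 263 and 274 CPM untreated and 1994, 2196, 2447 and 2626 CPM with zymosan (log2 fold change 3.45 ± 0.18, edgeR adjusted p = 8.47e-15). C2 rose by 2.42, Fcgr4 by 2.32 and Fcgr1 by 2.04, while Fcgrt, which recycles IgG, fell by 0.92. Scavenger and engulfment receptors had 7 higher and 8 lower of 18 tested out of 20 (median -0.30). Siglec1 rose by 2.83, Marco by 1.40 and Mertk by 1.31. Cd163, the hemoglobin scavenger receptor, fell by 3.74, Clec10a by 2.06, Mrc1, the mannose receptor, by 0.97 and Trem2 by 0.99.

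Adhesion and cell shape genes were higher in 14 and lower in 8 of 23 cases (median 0.21), and in 11 and 12 with library totals (median -0.14). Itgb8 (ENSMUSG00000025321, chromosome 12, 119158022 to 119238802, minus strand), an integrin chain that activates TGF-β, had 0.0221, 0.248, 0.129 and 0.0958 CPM untreated and 12, 12.9, 10.8 and 10.7 CPM with zymosan (log2 fold change 6.50 ± 0.21, edgeR adjusted p = 4.59e-19). Fscn1, the actin bundler of mature dendritic cells, rose by 2.40 and Marcksl1 by 2.90. Cdh1, E-cadherin, fell from 105, 105, 111 and 113 to 20.3, 19.2, 21.5 and 20.6 CPM (log2 fold change -2.41 ± 0.06, edgeR adjusted p = 5.22e-21). Matrix proteases and inhibitors had 10 higher and 5 lower of 16 (median 0.85). Mmp13 rose by 2.16, Serpinb2, an inhibitor of plasminogen activators, by 2.71 and Timp1 by 1.34. Plau, the urokinase plasminogen activator that Serpinb2 inhibits, fell by 1.96.

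The same stimulus was also applied to cells labelled KO, in samples that share none with the WT comparison. The label could not be checked from Ern1, since a whole-gene count includes exons that a deletion may leave in place: it had 53.3, 54.6, 48.2 and 49.6 CPM in the untreated libraries labelled KO, above all 4 WT ones. In these libraries zymosan called 4487 genes (31.6%) higher and 4990 (35.2%) lower. Of the 4867 genes higher in WT, 4795 (98.5%) had the same sign in the libraries labelled KO and 4245 (87.2%) were called higher there. Of the 5091 lower in WT, 5056 (99.3%) had the same sign and 4539 (89.2%) were called lower. For changes over 2-fold in WT, 1317 of 1384 (95.2%) and 1164 of 1243 (93.6%) were called in the same direction. Markers of other cells differed between the labels: the eosinophil granule gene Prg2 had 681, 714, 514 and 467 CPM in untreated WT samples and 5.12, 5.29, 5.15 and 5.29 CPM in those labelled KO, and Epx 213, 213, 167 and 156 and 0.717, 0.747, 0.904 and 0.652 CPM. The part of these cells in the comparison was not tested.

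Where the response itself differed, it was mostly larger in WT. The interaction test called 120 genes (0.846%) with a higher and 138 (0.973%) with a lower log2 response in WT than in the libraries labelled KO. Of these 258 genes 232 had the larger change in WT, 12 in the libraries labelled KO, and 14 changed in opposite directions. No gene was called by edgeR with replicate pairs summed, where 367 and 456 genes had an unadjusted p under 0.05; DESeq2 called 201 and 229, and a fit with replicate number as a block 240 and 266. With 1 library left out at a time the counts were 56 to 155 and 69 to 195, the lowest without KO zymosan replicate 2; they were 63 and 91 without KO zymosan replicate 1 and the count of higher responses was 78 without WT zymosan replicate 2. Over all genes higher by more than 2-fold in WT, 1129 of 1384 had the larger response in WT (median 1.69 against 1.52), and of those lower 1103 of 1243 (-1.35 against -1.09). These genes were chosen for a large response in WT, which favours WT in such a count. Chosen instead for a change over 2-fold in the libraries labelled KO, 888 of 1210 higher genes had the larger response in WT (median 1.82 against 1.68), and 599 of 852 lower genes (-1.47 against -1.28).

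Among genes of at least 5 CPM, the responses most above those of the libraries labelled KO were those of Pdzk1ip1, Nppc and Slc1a2. Slc1a2 (ENSMUSG00000005089, chromosome 2, 102658659 to 102790784, plus strand), a glutamate transporter best known in the brain, had 1.15, 1.05, 0.754 and 0.67 CPM in untreated and 76.1, 70.2, 77.3 and 74.2 CPM in zymosan WT samples. In the libraries labelled KO it had 0.983, 0.826, 1.02 and 1.08 and 43.6, 40.2, 43.2 and 47 CPM, so its response was 6.36 ± 0.09 against 5.47 ± 0.09, a difference of 0.89 ± 0.15, edgeR adjusted p = 0.00315. The zymosan levels of WT and KO did not overlap, with WT higher. Nppc, which encodes C-type natriuretic peptide, differed by 0.99 ± 0.17, edgeR adjusted p = 0.00285, and Pdzk1ip1 by 1.17 ± 0.24, edgeR adjusted p = 0.0092. The responses most below were falls that were larger in WT: Plau differed by -0.79 ± 0.16, edgeR adjusted p = 0.0092, and the mitotic genes Plk1 and Cenpf by -0.79 ± 0.17, edgeR adjusted p = 0.0154 and by -0.76 ± 0.16, edgeR adjusted p = 0.0133. Myc fell by 1.51 in WT and its log2 fold change was -0.88 ± 0.04 in the libraries labelled KO (difference -0.62 ± 0.06, edgeR adjusted p = 3.2e-06). Il1b responded by 4.09 ± 0.06 and 3.80 ± 0.06 (difference 0.29 ± 0.07, edgeR adjusted p = 0.0397).

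**Figure D4:**
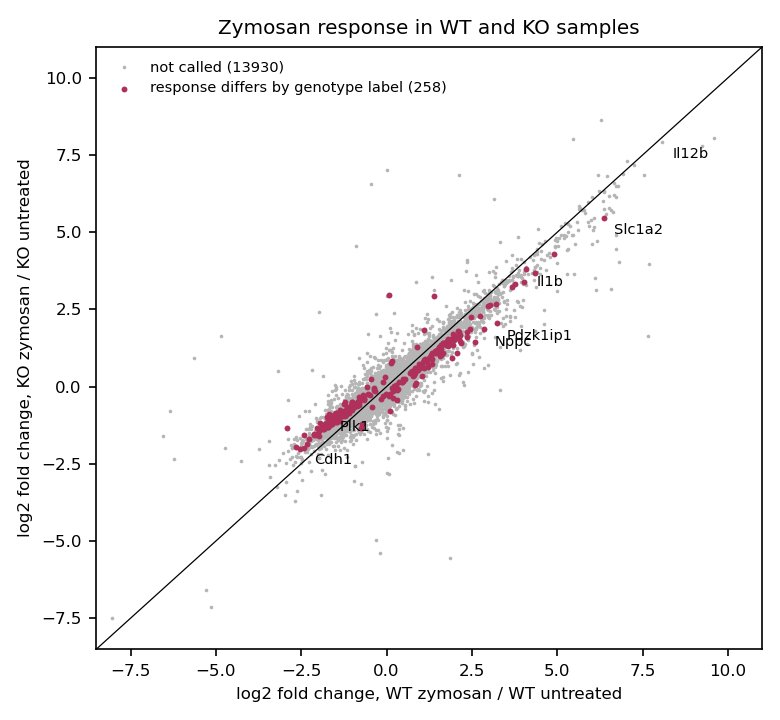
Log2 fold change of zymosan over untreated for each tested gene in WT (x axis) and in libraries labelled KO (y axis), with the diagonal marking equal responses and the 258 genes called in the interaction in red. Most genes lie near the diagonal, and 232 of the 258 have the larger change in WT.

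A direct contrast of zymosan with LPS in WT cells was used, since both responses share the untreated samples. In this contrast 3481 genes (24.5%) were higher with zymosan and 3106 (21.9%) lower, and 2280 and 1979 with replicate pairs summed. Of the 1384 genes that zymosan raised by more than 2-fold, 128 were higher and 760 lower than with LPS (median log2 difference -0.35). Of the 1243 it lowered by more than 2-fold, 533 were higher and 32 lower (median 0.36). The doses and times of both stimuli are not given, so their strengths cannot be matched.

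Interferon-linked groups were lower with zymosan than with LPS. Of 31 interferon-stimulated genes 30 were lower and 1 was not called (median -0.65), of 12 GTPase genes all 12 were lower (median -0.91), and of 25 class I genes 18 were lower and 1 higher (median -0.43). Costimulatory genes had 12 lower and 3 higher of 20 (median -0.32), and complement and Fc receptor genes 11 lower and 3 not called of 14 (median -0.40). The medians of the class I, costimulatory, and complement and Fc receptor lists lie near that of all genes zymosan raised by more than 2-fold (-0.35). Cd40 had 240.1, 266, 225 and 245 CPM with zymosan and 636, 615, 665 and 704 CPM with LPS (log2 difference -1.42 ± 0.08, edgeR adjusted p = 5.98e-13). Il12b had log2 fold changes over untreated of 8.07 with zymosan and 10.09 with LPS, a direct difference of -2.02 ± 0.08, edgeR adjusted p = 1.81e-15. Il23a went the other way, at 5.63 ± 0.16 with zymosan and 4.24 with LPS (difference 1.39 ± 0.11, edgeR adjusted p = 2.17e-10).

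Other members were also higher with zymosan. Csf3 had 27.8, 26.6, 26.8 and 27.8 CPM with zymosan and 5.36, 4.9, 5.9 and 5.55 CPM with LPS, the largest difference among called genes of at least 5 CPM (2.33 ± 0.11, edgeR adjusted p = 5.41e-14). The neutrophil chemokine genes Cxcl1 and Cxcl2 differed by 1.70 ± 0.11, edgeR adjusted p = 1.03e-11 and by 1.25 ± 0.09, edgeR adjusted p = 7.55e-11, and Tnf by 1.06 ± 0.07, edgeR adjusted p = 2.53e-11. Clec7a had a log2 fold change of 0.52 with zymosan and 0.04 with LPS (difference 0.47 ± 0.12, edgeR adjusted p = 0.00161). Of 22 immediate early and AP-1 genes 14 were higher with zymosan and 4 lower (median 0.48). Among them Fos fell by 0.47 with zymosan and had a log2 fold change of -1.60 with LPS (difference 1.13 ± 0.06, edgeR adjusted p = 2.56e-13). Hepacam2 and Cdh1 followed Csf3, at 2.22 ± 0.17, edgeR adjusted p = 1.52e-10 and 1.78 ± 0.07, edgeR adjusted p = 3.09e-15: both fell with zymosan, to levels that stayed above those with LPS. The genes furthest below LPS were Thbs4, a matrix glycoprotein, at -2.61 ± 0.11, edgeR adjusted p = 1.25e-14, U90926 at -2.59 ± 0.11, edgeR adjusted p = 3.49e-15 and Ccr4, the receptor for Ccl17 and Ccl22, at -2.25 ± 0.10, edgeR adjusted p = 2.95e-14. Ccr4 had 0.907, 0.807, 0.841 and 0.67 CPM untreated, 8.91, 8.89, 6.6 and 5.92 with zymosan and 37, 36.5, 35.8 and 34.3 with LPS, so that the 3 groups did not overlap.

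**Figure D5:**
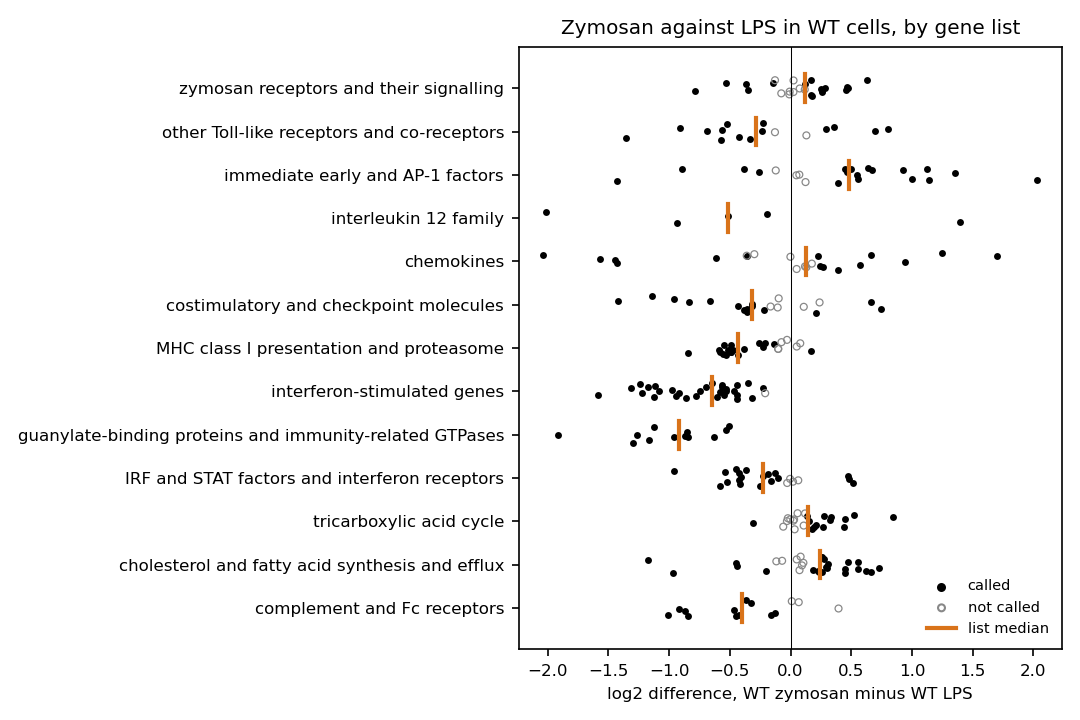
Log2 difference between WT zymosan and WT LPS samples (x axis) for the members of 13 gene lists, filled where called, with list medians in orange. Most members of the interferon-linked lists lie to the left of 0, lower with zymosan, and most immediate early genes lie to the right.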

How the data were processed

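Bone marrow-derived dendritic cells were profiled by RNA sequencing in 6 groups of 4 samples, grouped by the IRE1, treatment and replicate labels. The deposited table holds whole-number counts per gene. Bowtie2, RSEM 1.2.31 and DESeq2 were used by the authors with build mm10, per the submitters' processing notes, which give no roles, order or strand setting. RSEM shares reads among similar genes, so counts of near-identical copies are uncertain. Decimal counts had been assumed and would have been rounded, but the counts were whole and were used unchanged. GENCODE M21 (GRCm38) named 37570 genes (96.6%) and gave positions and types. Total counts were 32223256 to 46927434 over the 24 samples, and 14809 genes had no count.

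One edgeR 4.0.16 quasi-likelihood model (R 4.3.3, TMM, filterByExpr, a mean per group, common biological coefficient of variation 0.0686) was fitted to all 24 samples. Its contrasts were zymosan against untreated in WT and in KO samples, the interaction of both, and zymosan against LPS in WT samples. P-values were adjusted over the 14188 genes tested. A standard error is the size of the log2 fold change divided by the root of the F statistic, and is approximate. Ratios of genes with few counts use exact 95% intervals. The procedure was also run on simulated data, with changes planted in a small share of the genes and independent replicates. That simulation does not bear on the choice of scaling or on the likeness within replicate pairs. Named genes were members of the lists, and genes chosen by rule: the 12 largest rises and falls with at least 5 CPM and no overlap, the 10 largest gains and losses in CPM, and the 3 extremes of each other contrast. Other list members are named where their list is described, and some are not reported here. Members and lists were chosen with earlier results of these data known.

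Same-numbered untreated and zymosan WT samples deviated together (correlations of their deviations from the group means 0.156, 0.155, 0.151 and 0.247). Differently numbered samples within replicates 1 and 2 or within 3 and 4 had 0.089 to 0.175, so a split into these pairs cannot be told apart from pairing by number. Every same-numbered correlation was over 0.1, and a fit with replicate number as a block was run as an alternative. The labels do not say what same-numbered samples share. The main model had no term for replicate number or for these pairs. Its p-values and standard errors therefore treat the samples of a group as independent. Alternatives were DESeq2 1.42.0, its size factors, upper-quartile factors, library totals, no filter on low counts, only the groups compared, a replicate block, replicate pairs summed or alone, and each library left out. Promoters came from RefSeq (GRCm38.p6) and were matched by symbol.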

Additional observations from a re-analysis of the deposited data

Results flagged for a closer look

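Single samples stood far from the other 3 of their group for some genes named above. The gap to the nearest sample took more of the range of the group than the 95% limit of the Dixon ratio. Chance alone passes that limit in about 1 of 20 groups. The check covered 251 named genes in the untreated and zymosan WT groups, without correction for that number. Flags as many as those below can therefore arise by chance alone. Deptor had 12.8 CPM in untreated replicate 2 and 15.5 to 16 CPM in the other replicates. Ereg had 2.41 CPM in zymosan replicate 1 and 1.76 to 1.85 CPM in the other replicates. Fam198b had 29.4 CPM in untreated replicate 3 and 25.7 to 26.1 CPM in the other replicates. Gpi1 had 1940.3 CPM in zymosan replicate 3 and 2073 to 2097 CPM in the other replicates. Hmox1 had 1500.4 CPM in zymosan replicate 4 and 1389 to 1394 CPM in the other replicates. Idh1 had 141 CPM in zymosan replicate 1 and 125 to 127 CPM in the other replicates. Ifnb1 had 0.0383 CPM in untreated replicate 4 and 0 CPM in the other replicates. Il15 had 4.1 CPM in untreated replicate 3 and 4.83 to 4.89 CPM in the other replicates. Il18r1 had 0.876 CPM in zymosan replicate 2 and 0.783 to 0.797 CPM in the other replicates. Il19 had 0.0192 CPM in untreated replicate 4 and 0 CPM in the other replicates. Il6st had 71.2 CPM in untreated replicate 1 and 66 to 66.7 CPM in the other replicates. Isg15 had 918 CPM in zymosan replicate 2 and 818 to 834 CPM in the other replicates. Myc had 15.1 CPM in zymosan replicate 1 and 13 to 13.3 CPM in the other replicates. Myd88 had 90.7 CPM in untreated replicate 4 and 86.9 to 87.5 CPM in the other replicates. Sod2 had 944 CPM in zymosan replicate 3 and 997 to 1006 CPM in the other replicates. Syk had 401 CPM in untreated replicate 2 and 418 to 421 CPM in the other replicates. Tgtp1 had 17.4 CPM in zymosan replicate 2 and 11.8 to 12.2 CPM in the other replicates. Ifnb1 and Il19 had 2 counts and 1 count over the 4 untreated libraries.

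The response to zymosan differed between WT samples and those labelled KO, by the interaction test, for genes named above. Where the WT response was the higher one, the log2 differences were these. Batf differed by 0.50 (edgeR adjusted p = 0.0219). Cd14 differed by 0.43 (edgeR adjusted p = 0.0267). Cd274 differed by 0.26 (edgeR adjusted p = 0.0165). Dusp16 differed by 0.47 (edgeR adjusted p = 0.0102). Dusp2 differed by 0.74 (edgeR adjusted p = 0.0473). Hmox1 differed by 0.26 (edgeR adjusted p = 0.0451). Il18bp differed by 0.66 (edgeR adjusted p = 0.00154). Il1b differed by 0.29 (edgeR adjusted p = 0.0397). Mlkl differed by 0.36 (edgeR adjusted p = 0.0334). Nos2 differed by 0.44 (edgeR adjusted p = 0.0363). Nppc differed by 0.99 (edgeR adjusted p = 0.00285). Pdzk1ip1 differed by 1.17 (edgeR adjusted p = 0.0092). Slc1a2 differed by 0.89 (edgeR adjusted p = 0.00315). Sod2 differed by 0.30 (edgeR adjusted p = 0.00866). Timp1 differed by 0.62 (edgeR adjusted p = 0.0355). Tlr1 differed by 0.50 (edgeR adjusted p = 0.000238).

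Where the WT response was the lower one, they were as follows. Ccnb1 differed by -0.52 (edgeR adjusted p = 0.026). Cdh1 differed by -0.44 (edgeR adjusted p = 0.0064). Cenpf differed by -0.76 (edgeR adjusted p = 0.0133). Cotl1 differed by -0.24 (edgeR adjusted p = 0.021). Daglb differed by -0.70 (edgeR adjusted p = 0.00228). Myc differed by -0.62 (edgeR adjusted p = 3.2e-06). Pald1 differed by -0.54 (edgeR adjusted p = 0.0145). Pdxk differed by -0.48 (edgeR adjusted p = 0.0114). Plau differed by -0.79 (edgeR adjusted p = 0.0092). Plk1 differed by -0.79 (edgeR adjusted p = 0.0154). No gene was called in this test with replicate pairs summed.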

How the results depend on the processing

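The balance of rises and falls moved with the scaling. With library totals, zymosan raised 2520 and lowered 8524 genes in WT, and 2413 and 8370 in samples labelled KO. Under the other alternatives the WT counts stayed within 1.5 times: 3795 to 5006 higher and 4469 to 6386 lower, and 4739 to 4843 and 4924 to 5026 with 1 library left out. With replicate number as a block, the counts were 4991 and 5242 in WT, 4607 and 5146 in KO, and 3712 and 3333 for zymosan against LPS, and no call of a named gene changed. The interaction moved most: 240 higher and 266 lower with the replicate block, 201 and 229 with DESeq2, 648 and 558 in replicates 1 and 2, 118 and 74 in replicates 3 and 4, 47 and 107 with only the groups compared, 80 and 262 with library totals, 0 and 0 with replicate pairs summed, and 56 to 155 and 69 to 195 with 1 library left out. Against LPS, summed pairs gave 2280 higher and 1979 lower; the cause was not tested, though that fit has 2 sums per group. Signs turned for Itgax (called lower at -0.12 with upper-quartile factors and -0.33 with library totals, not called at -0.01 to 0.04 with 1 library left out), Flt3 (-0.16) and Prg2 (-0.06) with library totals, and Arg1 (0.02 in replicates 1 and 2, -0.07 to 0.02 with 1 library left out), none of these 3 called where the sign turned. At 35810219 to 45720878 counts per library, genes of a few counts, such as Ifnb1, are the ones that depth limits.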
